A study of Rattus norvegicus with 9 samples.

Results

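The genes described are 51 components of TGF-beta, activin and BMP signaling in the regenerating rat meniscus. They were taken by gene symbol from a list of ligands, antagonists, latent binding proteins, receptors, Smads and Id genes, and all 51 were among the 17602 genes of the expression table and above 0 TPM in at least 3 libraries. TPM is a measure of transcript abundance scaled by transcript length and to a total of 1000000 per library. RNA was sequenced from wild-type male Lewis rats 10 to 12 weeks of age, with 3 libraries in each of 3 groups. The intact group was synovium, the lining tissue of the joint, from around the medial meniscus of knees that had no surgery. The sham group was the same synovium 1 week after the joint capsule had been opened and closed. The pMx group was the tissue regenerating 1 week after partial medial meniscectomy (pMx), in which the anterior part of the medial meniscus is removed, and the surrounding synovium had been trimmed away from it. Sham and pMx libraries thus differ by surgery as well as by tissue. How many animals gave each library is not given in the sources used here, so the p-values measure the spread between these libraries.

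Ligands of the TGF-beta family are secreted dimers that assemble pairs of type I and type II serine/threonine kinase receptors on the cell surface. TGF-betas and activins act mainly through Smad2 and Smad3, and bone morphogenetic proteins (BMPs) mainly through Smad1, Smad5 and Smad9, each with the shared partner Smad4. TGF-beta is secreted in a latent complex and stored in the extracellular matrix by latent TGF-beta binding proteins, activins are neutralised by follistatin, and BMPs by noggin, chordins and gremlins. In joints, TGF-beta is known for driving matrix production and fibrosis of the synovium, and BMPs for cartilage and bone formation.

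Each library held 15644 to 16125 genes above 0 TPM, and sequencing depth cannot be given, since TPM holds no read numbers. Replicate 3 of the intact group stood apart, with 37284.8 TPM summed over 8 skeletal muscle genes against 52.59 to 2508.4 in the other libraries. Results that rest on the intact group are given with and without it where they differ. Genes of other cell types also differed between the groups. They are counted below as higher or lower in pMx than in sham at an adjusted p of 0.05 (limma). Of all genes tested, 17.7% were higher and 18.9% lower by that measure. The summed TPM of 7 adipocyte genes was 3350.68 to 7145.93 in the intact, 4385.24 to 4771.56 in the sham and 326.02 to 501.45 in the pMx libraries, and 7 of 7 were lower in pMx than in sham. Of 5 Schwann cell genes, 5 were lower, and their sum was 117.93 to 165.07 TPM in sham and 11.97 to 14.71 TPM in pMx libraries. Lep among the adipocyte genes was listed at 0 in at least 1 pMx library. Of 4 synovial lining genes, 3 were lower in pMx than in sham, and their sum was 3666.61 to 4946.02 TPM in intact, 1968.36 to 2642.94 in sham and 1157.88 to 1864.12 in pMx libraries. The sum of 5 fibroblast genes was 13354.5 to 16240.1 TPM in sham and 32576.9 to 35687.3 TPM in pMx libraries. Most of it came from the collagen genes Col1a1 and Col3a1, which were higher. Dpt and Pi16 were lower, and Pdgfra did not pass. The sum of 5 cartilage genes was 499.82 to 600.33 TPM in sham and 976.33 to 1181.95 TPM in pMx libraries. Most of that came from Comp, which did not pass (means of 512 and 840 TPM). Acan, Sox9 and Hapln1 were higher, and Col2a1 did not pass. Of 4 red and white blood cell genes, 2 were lower in pMx than in sham, and their sum was 8874.98 to 17165.4 TPM in intact, 4485.23 to 6601.7 in sham and 367.68 to 438.13 in pMx libraries. Of 8 endothelial genes 3 were lower (sums of 779.96 to 840.91 TPM in sham and 647.02 to 816.84 in pMx), and of 7 macrophage genes 1 was higher and 2 were lower (1543.88 to 1606 and 1041.72 to 1457.52 TPM). The RNA integrity scores listed for the samples also differed by group without overlap, lowest in intact and highest in pMx. The part of these cell types and of RNA quality in the results below was not tested. In such whole-tissue libraries, fewer cells of a type and less RNA per cell cannot be told apart.

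To see which components of the pathway differed in regenerating tissue, the pMx group was compared with the sham group. Transcripts of Tgfb1, Tgfb2 and the 3 activin and inhibin subunits were higher in the pMx libraries, and those of most BMPs and of the activin antagonist follistatin were lower. Of the 51 genes, 31 passed an adjusted p of 0.05 (limma, Benjamini-Hochberg), 13 higher and 18 lower, where 36.6% of all 16512 genes tested did so. Differentially expressed genes (DEGs), which also had an absolute log2 fold change above 1 on the log2(TPM + 1) scale, numbered 16, of which 3 were higher and 13 lower, and 8.21% of all genes tested were DEGs. By direction, 3.36% of all genes were DEGs with a higher and 4.85% with a lower level. The median log2 fold change was -0.07 over the 51 genes and -0.01 over all genes tested.

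The 24 genes that passed in every fit that left out a library included all 16 DEGs. The other 7, Gdf11, Chrd, Nog, Fstl3, Bmpr1a, Bmpr2 and Smad7, fell short of the threshold in 4 to 7 of the 9 such fits, with adjusted p values of up to 0.16 (limma). Leaving out sham replicate 1, pMx replicate 1 or pMx replicate 2 took the call from all 7. Leaving out sham replicate 3 took it from all of them but Fstl3, and leaving out sham replicate 2 from Nog, Fstl3, Bmpr2 and Smad7. Without pMx replicate 3 it was lost for Gdf11, Nog, Fstl3 and Bmpr1a, and without intact replicate 1 or 2 for Gdf11. In the fits without a sham or pMx library, 27.2% to 31.9% of all genes passed, against 36.6% with all libraries. Leaving out intact replicate 3, which enters through the shared estimate of the spread, gave 34 genes, with Tgfbr2, Smad3 and Id1 gained, where 45.6% of all genes passed. With the fold-change threshold as well, 15 of the 16 DEGs were kept without pMx replicate 1. The log2 fold change of Bmp2 ran from -1.27 to -0.96 over the fits, and those of the other DEGs stayed past the threshold.

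**Figure D1:**
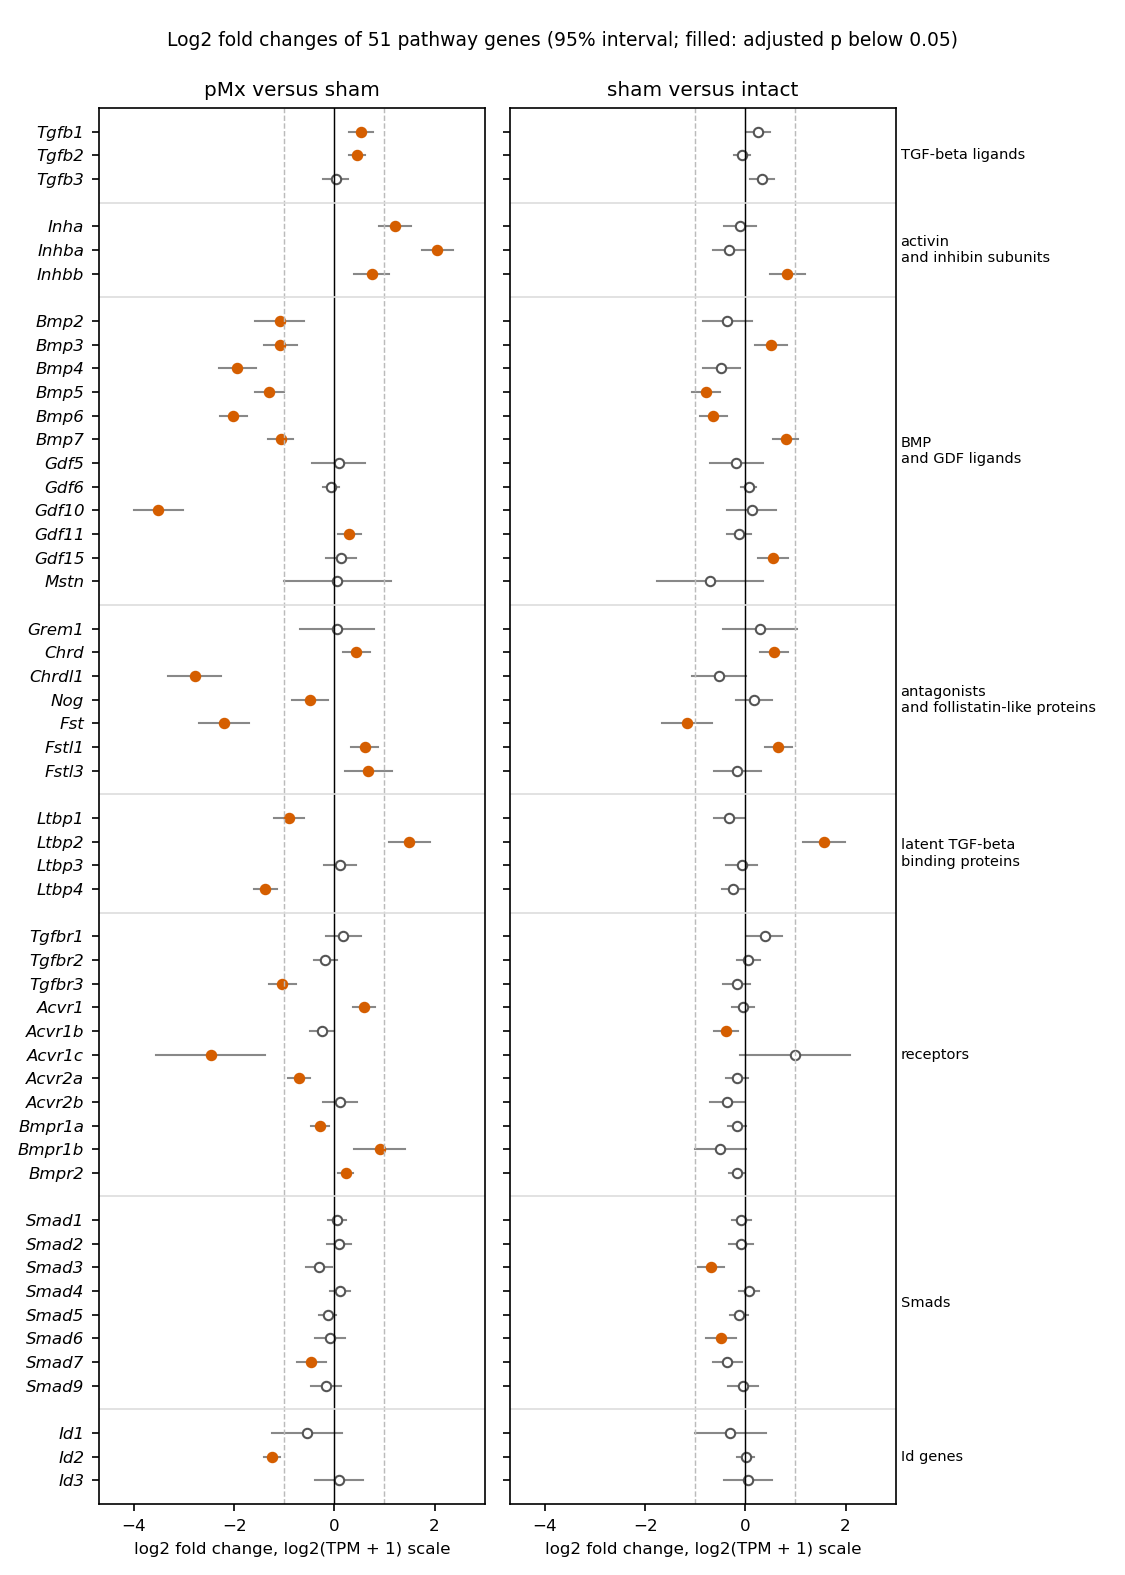
Log2 fold changes of the 51 genes on the log2(TPM + 1) scale, ordered by role, for pMx versus sham (left) and sham versus intact (right). Points are limma estimates, bars 95% intervals, filled points have an adjusted p below 0.05 and dashed lines mark log2 fold changes of -1 and 1. Bmp2 to Bmp7, Gdf10, Chrdl1, Fst, Ltbp4, Tgfbr3, Acvr1c and Id2 lie left of -1 and Inhba, Inha and Ltbp2 right of 1 in pMx versus sham.

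The 3 TGF-beta genes encode closely related ligands that stimulate matrix synthesis. Tgfb1 was at 97.1, 107.99 and 84.95 TPM in the intact, 117.98, 125.14 and 101.25 TPM in the sham and 158.1, 168.34 and 173.14 TPM in the pMx libraries. All pMx libraries lay above all others, and the intact and sham libraries overlapped. The log2 fold change of Tgfb1 in pMx versus sham was 0.54 (SE, standard error, 0.10; adjusted p = 0.00413, limma), a 1.45-fold difference of the group means. Tgfb2 was the least abundant of the 3, at 19.72 to 21.83 TPM in sham and 27.36 to 29.8 TPM in pMx libraries (log2 fold change 0.45, standard error 0.07, adjusted p = 0.00145). Tgfb3 did not pass the test. Its log2 fold change was 0.02 with a 95% interval of -0.22 to 0.27, and its pMx values of 121.22, 110.05 and 114.25 TPM lay within the sham range of 103.36 to 126.54 TPM. As a share of the summed TPM of the 3 genes, Tgfb1 took 46.1% ± 4.56 in sham and 53.7% ± 2.22 in pMx libraries (SD, n = 3 each).

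Inhba encodes the beta A subunit, 2 copies of which form activin A, a ligand that acts through Smad2 and Smad3. Its level was 18.35, 24.02 and 24.41 TPM in the intact, 18.03, 20.02 and 14.57 TPM in the sham and 75.1, 70.78 and 81.48 TPM in the pMx libraries. The intact and sham values overlapped, and the lowest pMx library was far above every other. The difference of the means from sham was 4.32-fold, with a log2 fold change of 2.06 (95% interval 1.74 to 2.37, adjusted p = 3.1e-05, limma). Inhba had the largest increase of the 51 genes. Inhbb, the beta B subunit, was at 2, 1.61 and 1.23 TPM in the intact, 3.36, 4.48 and 3.18 TPM in the sham and 5.82, 7.5 and 7.07 TPM in the pMx libraries. The 3 groups of Inhbb values did not overlap, and its log2 fold changes were 0.74 in pMx versus sham (adjusted p = 0.00624) and 0.84 in sham versus intact (adjusted p = 0.0139, limma). Inha encodes the alpha subunit, which pairs with a beta subunit to form inhibin, an antagonist of activin. Over the 6 intact and sham libraries it ranged from 1.87 to 2.95 TPM, below all pMx values (6.79, 6.97 and 5.47 TPM), and the log2 fold change from sham was 1.21 (SE 0.14, adjusted p = 0.0003). The ratio of Inhba to Inha in TPM was 8.21 ± 2.496 in sham and 12.04 ± 2.52 in pMx libraries (SD, n = 3 each), so the beta A transcript stayed the more abundant of the pair in every library.

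Follistatin, encoded by Fst, binds activins and keeps them from their receptors. Its transcript was at 40.37, 41.38 and 30.35 TPM in the intact, 12.72, 16.31 and 19.29 TPM in the sham and 2.26, 2.08 and 3.94 TPM in the pMx libraries. The 3 groups were fully separate, in the order intact, sham and pMx from high to low. In pMx versus sham, Fst had a log2 fold change of -2.20 (SE 0.22, adjusted p = 0.000152, limma), a mean 5.84-fold lower than in sham. The ratio of Inhba to Fst in TPM was 0.455, 0.580 and 0.804 in the intact, 1.42, 1.23 and 0.755 in the sham and 33.2, 34.0 and 20.7 in the pMx libraries. Intact and sham ratios overlapped, though not without intact replicate 3. In the pMx libraries the activin transcript exceeded that of its antagonist by at least 20.7 times. Fstl3, a second activin-binding protein of the follistatin family, was higher in the pMx group, at 8.28, 8.31 and 10.12 TPM against 4.07, 5.52 and 6.17 TPM in sham (log2 fold change 0.67, adjusted p = 0.0325).

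**Figure D2:**
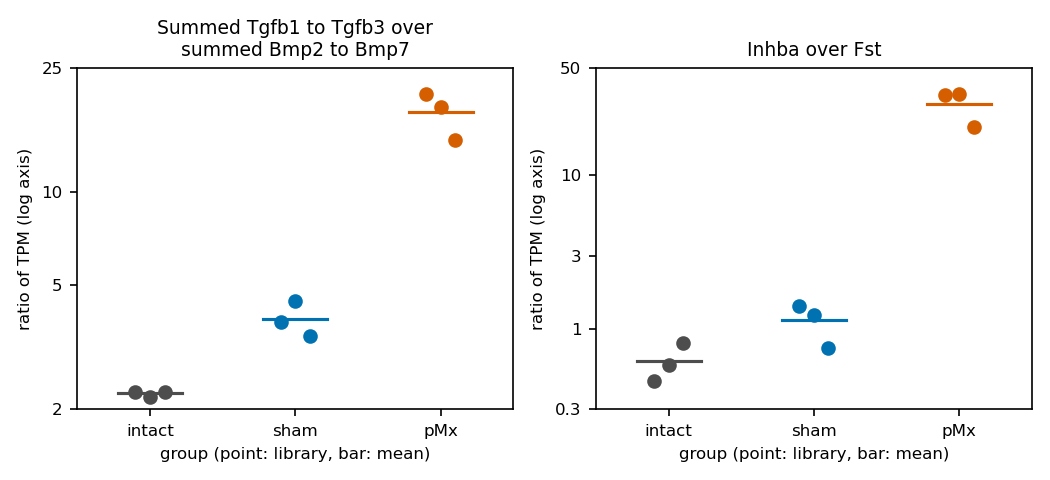
Ratio of the summed TPM of Tgfb1, Tgfb2 and Tgfb3 to that of Bmp2 to Bmp7 (left) and of Inhba to Fst (right) in each library, on log axes. Points are libraries and bars are group means, and the 3 pMx libraries sit above all others, at 14.6 to 20.6 on the left and 20.7 to 34.0 on the right.

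The BMP ligands differed in the other direction. All 6 of Bmp2 to Bmp7 were DEGs lower in the pMx group, where 4.85% of all genes tested were. No pMx library reached the lowest sham library for any of the 6. Sham and pMx libraries did not overlap, in either direction, for 38 of the 51 genes, and the share over all genes was not computed. Bmp4, the most abundant, was at 41.67, 39.6 and 35.08 TPM in the intact, 25.79, 24.76 and 32.37 TPM in the sham and 5.45, 5.72 and 8.45 TPM in the pMx libraries. Its mean was 4.23-fold lower in pMx than in sham (log2 fold change -1.94, standard error 0.16, adjusted p = 7.25e-05, limma). Bmp6, known as a regulator of iron balance and of bone and cartilage, had the largest log2 fold change of the 6 with the pseudocount of 1. It was at 19, 21.97 and 16.4 TPM in the intact, 12.57, 10.53 and 12.58 TPM in the sham and 2.09, 2.16 and 2.27 TPM in the pMx libraries, and the 3 groups did not overlap. The log2 fold change of Bmp6 was -2.02 (SE 0.12, adjusted p = 2.63e-05), a 5.47-fold difference of the means.

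Bmp2, an inducer of bone and cartilage formation, was at 13.44, 10.16 and 14.39 TPM in the sham and 4.26, 5.03 and 7.03 TPM in the pMx libraries (log2 fold change -1.09, standard error 0.21, adjusted p = 0.0042). Bmp5, which acts in skeletal development, was at 9.46, 9.33 and 9.61 TPM in the sham and 2.98, 3.22 and 3.61 TPM in the pMx libraries (log2 fold change -1.30, standard error 0.12, adjusted p = 0.000131). Both groups of each gene were clearly apart. Bmp3 and Bmp7 were scarce transcripts. Bmp7 was at 1.33, 1.45 and 1.71 TPM in the sham and 0.21, 0.2 and 0.15 TPM in the pMx libraries, and Bmp3, an antagonist-like member of the family, at 1.06, 1.07 and 1.34 TPM in sham and at 0, 0 and 0.06 TPM in pMx. At such levels the pseudocount of 1 sets the size of the change. The log2 fold changes of Bmp3 and Bmp7 were -1.08 and -1.07 with it, and -3.42 and -2.48 with a pseudocount of 0.1. Summed over Bmp2 to Bmp7, the level was 92.8 ± 12.04 TPM in the intact, 64.3 ± 7.37 in the sham and 17.6 ± 3.48 in pMx (SD, n = 3 each). Bmp4 made up 42.0% ± 3.67, 42.9% ± 2.24 and 36.9% ± 2.12 of that sum (SD, n = 3 each). The summed level of the 3 TGF-beta genes was 208 ± 23.6, 249 ± 6.24 and 310 ± 4.81 TPM (SD, n = 3 each). The ratio of the TGF-beta to the BMP sum was therefore 2.19 to 2.28 in the intact, 3.44 to 4.46 in the sham and 14.6 to 20.6 in the pMx libraries.

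Gdf10, also called Bmp3b and related to Bmp3, had the largest decrease of the 51 genes on the log2(TPM + 1) scale. It was at 24.9, 20.91 and 14.02 TPM in the intact, 20.24, 19.37 and 24.56 TPM in the sham and 0.86, 0.66 and 1.4 TPM in the pMx libraries. Intact and sham overlapped, and the pMx mean was 22.0-fold lower than the sham mean (log2 fold change -3.51, 95% interval -4.01 to -3.02, adjusted p = 2.63e-05, limma). Gdf11, a ligand close to myostatin, was slightly higher in the pMx group, at 16.32 to 17.11 TPM against 12.02 to 15.71 TPM in sham (log2 fold change 0.30, adjusted p = 0.0498). The remaining growth and differentiation factors did not pass the test. Gdf5, a joint-forming ligand, was at 0.54 to 1.75 TPM over the 9 libraries, and Gdf6, its close relative, at 0 to 0.15 TPM. Gdf15, a stress-induced cytokine, was at 2.14 to 2.79 TPM in sham and 2.64 to 3.17 TPM in pMx libraries (log2 fold change 0.13, 95% interval -0.17 to 0.43). Mstn, the muscle growth inhibitor myostatin, was at 3.31 TPM in intact replicate 3, the library with the high muscle genes, and at 0 to 0.25 TPM in the other 8.

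**Figure D3:**
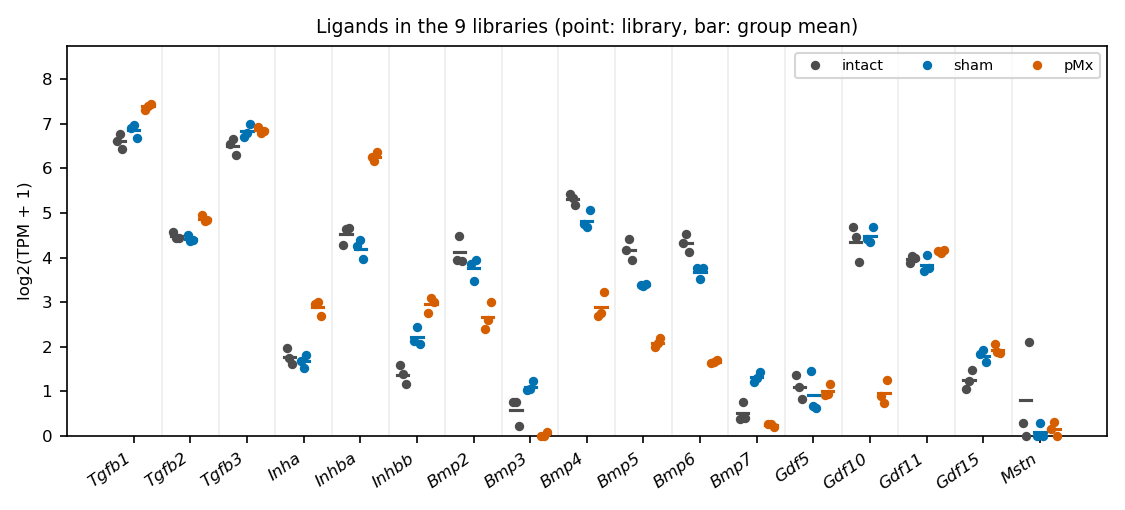
Log2(TPM + 1) of 17 ligand genes in each library, in the order intact, sham and pMx within each gene. Points are libraries and bars are means of the log2 values; Gdf6, at 0 to 0.15 TPM, is not drawn. The pMx points lie above all sham points for Tgfb1, Tgfb2, Inha, Inhba, Inhbb and Gdf11 and below them for Bmp2 to Bmp7 and Gdf10.

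Of the BMP antagonists, Chrdl1, a chordin-like protein that binds BMPs, was the DEG. It was at 43.13, 36.61 and 23.37 TPM in the intact, 24.45, 20.51 and 23.88 TPM in the sham and 3.12, 2.74 and 1.67 TPM in the pMx libraries. The intact and sham ranges overlapped, though not without intact replicate 3, and every pMx library was below both. Its log2 fold change was -2.79 (SE 0.23, adjusted p = 7.32e-05, limma), a 9.14-fold difference of the means. Chordin itself, Chrd, went in the opposite direction, at 7.81, 8.96 and 7.89 TPM in sham and 12.11, 11.46 and 10.78 TPM in pMx (log2 fold change 0.43, adjusted p = 0.0206). Nog, encoding noggin, was below 1 TPM in every library, at 0.67 to 0.89 TPM in sham and 0.16 to 0.39 TPM in pMx (log2 fold change -0.49, adjusted p = 0.0377). Grem1, encoding gremlin, gave no call. Its values of 0.83 to 3.49 TPM overlapped in all groups, and the 95% interval of its log2 fold change ran from -0.69 to 0.80. Fstl1, a secreted follistatin-like glycoprotein made by fibroblasts, was by far the most abundant of these genes. It was at 325.24, 387.13 and 283.46 TPM in the intact, 516.45, 559.1 and 484.21 TPM in the sham and 788.18, 854.61 and 735.31 TPM in the pMx libraries. The 3 groups did not overlap, and the log2 fold change in pMx versus sham was 0.61 (SE 0.12, adjusted p = 0.00406).

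Latent TGF-beta binding proteins anchor the latent ligand to microfibrils of the matrix, except that LTBP2 does not bind latent TGF-beta. Ltbp2 was at 3.93, 3.28 and 3.02 TPM in the intact, 15.22, 13.11 and 8.68 TPM in the sham and 34.05, 38.58 and 34.78 TPM in the pMx libraries. The groups rose in that order without overlap. Ltbp2 had log2 fold changes of 1.495 from sham to pMx (SE 0.18, adjusted p = 0.00038, limma) and 1.57 from intact to sham (SE 0.18, adjusted p = 0.00355). Ltbp4, known for its part in elastic fibre assembly, was at 198.93, 214.96 and 174.93 TPM in the intact, 167.36, 146.95 and 184.7 TPM in the sham and 60.93, 65.7 and 63.06 TPM in the pMx libraries. Intact and sham overlapped, though not without intact replicate 3. The pMx libraries lay apart, with a log2 fold change from sham of -1.38 (SE 0.10, adjusted p = 4.09e-05). Ltbp1, the best known carrier of latent TGF-beta, was also lower, at 28.85 to 30.19 TPM in sham and 13.22 to 16.54 TPM in pMx libraries (log2 fold change -0.91, adjusted p = 0.000951). Ltbp3 was at 117.98 to 172.44 TPM over all libraries, with a log2 fold change of 0.11 and a 95% interval of -0.20 to 0.43. The make-up of the family therefore differed between tissues. Ltbp4 took 51.4% ± 2.06 of the summed TPM of the 4 genes in the intact, 48.1% ± 3.15 in the sham and 24.1% ± 1.51 in pMx, and Ltbp2 0.897% ± 0.132, 3.59% ± 1.02 and 13.6% ± 0.462 (SD, n = 3 each). Ltbp3 took the largest share in the pMx group, 56.4% ± 2.62 against 39.7% ± 1.92 in sham (SD, n = 3 each).

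**Figure D4:**
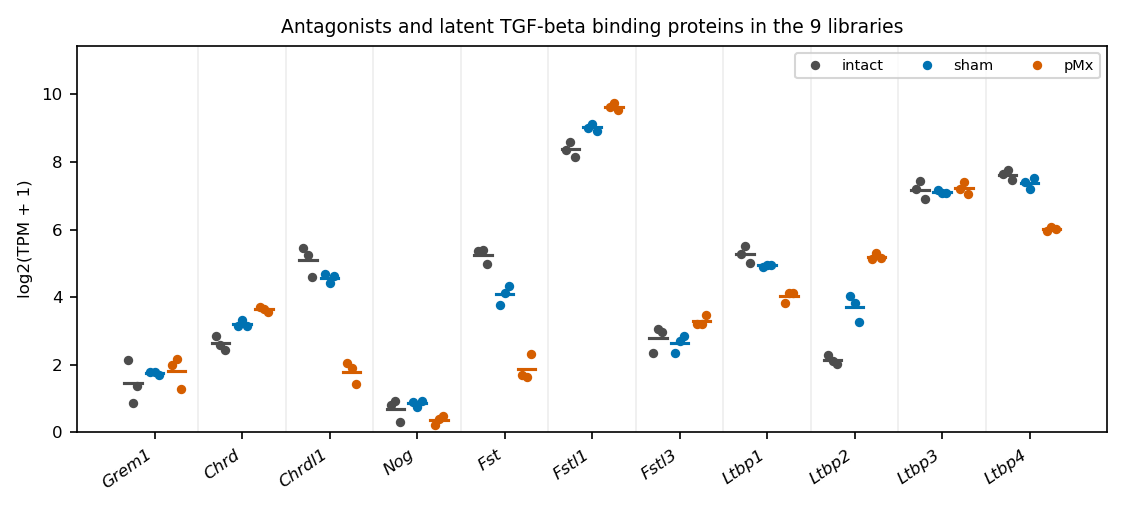
Log2(TPM + 1) of the antagonists, follistatin-like proteins and latent TGF-beta binding proteins in each library, in the order intact, sham and pMx within each gene. Points are libraries and bars are means of the log2 values. Chrdl1, Fst, Ltbp1 and Ltbp4 are lowest in the pMx libraries, and Chrd, Fstl1 and Ltbp2 are highest there.

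Of the 11 receptors, 7 passed in pMx versus sham, 3 with higher and 4 with lower levels, and 2 of the latter were DEGs. Of all genes tested, 17.7% passed with higher and 18.9% with lower levels, and 4.85% were DEGs with lower levels. Tgfbr3 encodes betaglycan, a co-receptor that presents TGF-beta2 and also binds inhibin. It was at 68.88, 66.62 and 48.48 TPM in the intact, 53.37, 53.99 and 53.35 TPM in the sham and 24.46, 27.1 and 25.3 TPM in the pMx libraries. Sham values lay within the intact range, though below it without intact replicate 3. The pMx values were well below both groups, with a log2 fold change from sham of -1.04 (SE 0.12, adjusted p = 0.000327, limma). Acvr1c encodes a type I receptor for activin B and nodal that is known from adipose tissue. It was at 5.51, 1.62 and 0.36 TPM in the intact, 5.77, 5.33 and 3.27 TPM in the sham and 0.01, 0.01 and 0.05 TPM in the pMx libraries. Its intact values were the most uneven of the receptors. The log2 fold change of Acvr1c in pMx versus sham was -2.47 (SE 0.48, adjusted p = 0.00416), and -5.28 with a pseudocount of 0.1. The adipocyte genes named above were lower in the same libraries, 326.02 to 501.45 TPM in sum against 4385.24 to 4771.56 in sham, and their part in the Acvr1c difference was not tested.

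The signaling receptors for TGF-beta, Tgfbr1 and Tgfbr2, were not called. Tgfbr2, the type II receptor, was the most abundant receptor, at 212.57 to 225.57 TPM in sham and 184.37 to 198.1 TPM in pMx libraries (log2 fold change -0.19, 95% interval -0.41 to 0.04), and Tgfbr1 had a log2 fold change of 0.18 (95% interval -0.17 to 0.53). With intact replicate 3 left out, Tgfbr2 passed at an adjusted p of 0.0153. Acvr2a, a type II receptor for activins and BMPs, was lower, at 14.71, 13.69 and 13.8 TPM in sham and 8.84, 8.51 and 7.39 TPM in pMx (log2 fold change -0.71, adjusted p = 0.000648), as was the BMP type I receptor Bmpr1a (log2 fold change -0.29, adjusted p = 0.0225). Acvr1, a type I receptor for BMPs that also binds activins, was higher, at 28.08, 25.35 and 22.86 TPM in sham and 40.7, 39.2 and 36.07 TPM in pMx (log2 fold change 0.59, standard error 0.09, adjusted p = 0.00156). Bmpr1b, a type I receptor known from developing cartilage, was at 0.24, 0.67 and 0.98 TPM in sham and 1.34, 2.26 and 2.51 TPM in pMx (log2 fold change 0.90, adjusted p = 0.0135), so both groups were low and did not overlap. Bmpr2, the BMP type II receptor, differed by 0.22 on the log2 scale (adjusted p = 0.0302). Acvr1b, the main activin type I receptor, and Acvr2b, a second activin type II receptor, had log2 fold changes of -0.24 and 0.11, neither past the threshold.

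Smads carry the signal from the receptors to the nucleus. Of the 8, only Smad7 passed in pMx versus sham, where 36.6% of all genes tested did. Smad7 is an inhibitory Smad that TGF-beta itself induces, and it was at 9.77, 10.86 and 9.7 TPM in the sham and 6.94, 6.86 and 7.43 TPM in the pMx libraries (log2 fold change -0.46, adjusted p = 0.023, limma). The other inhibitory Smad, Smad6, had a log2 fold change of -0.09 (95% interval -0.39 to 0.21). Log2 fold changes of the BMP-activated Smad1, Smad5 and Smad9 were 0.05, -0.14 and -0.16, and those of Smad2 and Smad4 were 0.09 and 0.11. Smad3, which carries TGF-beta and activin signals, was at 29.87, 24.96 and 29.15 TPM in sham and 22.21, 24.59 and 20.17 TPM in pMx (log2 fold change -0.31, adjusted p = 0.0606). It passed at an adjusted p of 0.0388 without intact replicate 3, and it also passed in fits without intact replicate 1 or sham replicate 2.

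Id1, Id2 and Id3 encode inhibitors of helix-loop-helix transcription factors and are widely used as readouts of BMP signaling. Only Id2 was a DEG. It was at 108.55, 105.55 and 91.88 TPM in the intact, 105.38, 96.75 and 104.5 TPM in the sham and 43.54, 42.58 and 41.22 TPM in the pMx libraries. The sham values lay among the intact ones, though below them without intact replicate 3. The pMx libraries were tightly grouped at a mean 2.41-fold lower than in sham (log2 fold change -1.25, standard error 0.07, adjusted p = 2.12e-05, limma). Id3, the most abundant of the 3, was at 457.25, 459.45 and 354.84 TPM in sham and 408.23, 465.01 and 467.04 TPM in pMx, and its log2 fold change was 0.08 (95% interval -0.40 to 0.56). Id1 was at 227.98, 239 and 97.59 TPM in the intact, 143.34, 168.89 and 118.08 TPM in the sham and 100.89, 98.05 and 91.91 TPM in the pMx libraries. The Id1 value of intact replicate 3 was less than that of any sham library, and the pMx values lay below the sham values. Its log2 fold change in pMx versus sham was -0.55 (95% interval -1.25 to 0.16, adjusted p = 0.205). Without intact replicate 3, Id1 passed at an adjusted p of 0.00629.

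**Figure D5:**
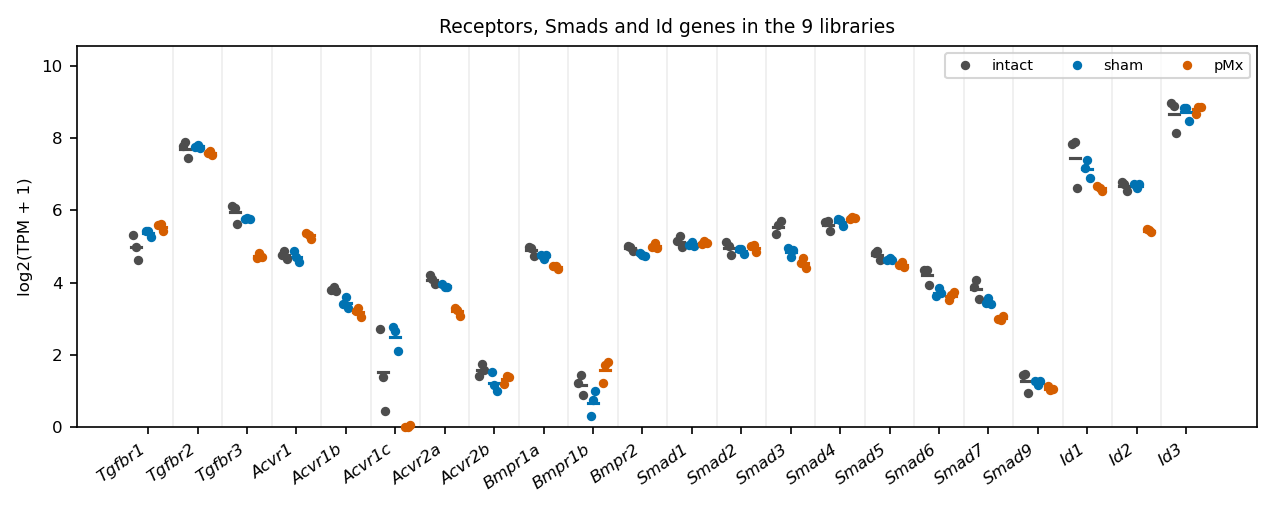
Log2(TPM + 1) of the receptors, Smads and Id genes in each library, in the order intact, sham and pMx within each gene. Points are libraries and bars are means of the log2 values. Tgfbr3, Acvr1c, Acvr2a and Id2 are lowest in the pMx libraries with no overlap, and Smad1, Smad2 and Smad6 overlap between sham and pMx.

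The upstream sequences of the 3 Id genes, of which only Id2 was a DEG, and of Inhba, the gene with the largest increase, are shown for comparison. They are the 250 bases before the annotated start of each gene in RefSeq's GRCr8 assembly, written 5′ to 3′ on the gene's strand, with capitals marking TATAAA and CCAAT on either strand (CCAAT on the other strand reads ATTGG). The Id1 window is chr3:161671314-161671563 (+), the Id2 window chr6:47470996-47471245 (-), the Id3 window chr5:153656041-153656290 (+) and the Inhba window chr17:53804509-53804758 (-).
Id1: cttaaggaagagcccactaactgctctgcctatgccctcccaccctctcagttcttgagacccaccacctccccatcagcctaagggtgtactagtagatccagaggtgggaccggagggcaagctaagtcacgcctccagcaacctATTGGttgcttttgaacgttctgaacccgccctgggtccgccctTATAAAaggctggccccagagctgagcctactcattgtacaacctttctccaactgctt
Id2: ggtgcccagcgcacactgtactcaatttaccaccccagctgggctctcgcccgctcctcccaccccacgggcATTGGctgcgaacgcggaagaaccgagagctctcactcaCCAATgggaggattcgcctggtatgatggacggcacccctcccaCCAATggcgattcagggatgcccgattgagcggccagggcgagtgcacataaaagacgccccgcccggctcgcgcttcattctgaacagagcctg
Id3: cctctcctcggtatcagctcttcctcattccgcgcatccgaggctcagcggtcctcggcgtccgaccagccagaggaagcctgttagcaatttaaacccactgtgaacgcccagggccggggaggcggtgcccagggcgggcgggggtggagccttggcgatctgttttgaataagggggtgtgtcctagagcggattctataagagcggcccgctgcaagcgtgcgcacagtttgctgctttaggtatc
Inhba: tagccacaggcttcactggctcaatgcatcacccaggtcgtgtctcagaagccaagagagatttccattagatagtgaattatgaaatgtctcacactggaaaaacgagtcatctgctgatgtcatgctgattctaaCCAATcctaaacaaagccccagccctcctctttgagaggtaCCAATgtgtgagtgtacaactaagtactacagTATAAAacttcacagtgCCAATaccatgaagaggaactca
Id1 holds TATAAA 59 bases and CCAAT 103 bases before the start. Id2 holds CCAAT at 178, 139 and 95 bases, Inhba TATAAA at 40 and CCAAT at 113, 72 and 23 bases, and Id3 neither motif. Of the 51 genes, 42 had such a window. CCAAT was in 13 of the 42 (31%) and in 34.3% of 27457 windows of the same length, and TATAAA in 6 (14.3%) and in 13.1%. The Smad-related motifs GGCGCC and CAGAC, searched on both strands, were in 11 (26.2%) and 8 (19%) of the 42 and in 9.24% and 42.8% of all windows, and in none of the 4 windows printed. The motifs were counted independently of one another, and a match is a description of letters and not a binding site. The windows compared were not matched for base composition, and sequence further upstream was not searched.

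The comparison of sham with intact synovium showed how the pathway differed 1 week after opening the joint capsule alone. Of the 51 genes, 13 passed an adjusted p of 0.05 (limma), where 12.7% of all genes tested did, 7 being higher (6.73% of all genes) and 6 lower (5.97%). Only Ltbp2, higher, and Fst, lower, were also past the fold-change threshold, where 1.96% of all genes were DEGs. The median log2 fold change was -0.10 over the 51 genes and -0.02 over all genes. This comparison and the one above share the sham libraries, so the values of each are given for themselves.

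Fst had a log2 fold change of -1.17 in sham versus intact (SE 0.22, adjusted p = 0.0141, limma), its mean 2.32-fold lower than in intact tissue. The call was lost without sham replicate 1 or sham replicate 2, with adjusted p values of up to 0.0533. The BMP ligands were split. Bmp5 was at 17.09, 20.29 and 14.43 TPM in the intact and 9.33 to 9.61 TPM in the sham libraries (log2 fold change -0.79, adjusted p = 0.00809), and Bmp6 had a log2 fold change of -0.64 (adjusted p = 0.0145). Bmp7 was higher in sham, at 1.33 to 1.71 TPM against 0.3, 0.69 and 0.32 TPM in intact (log2 fold change 0.81, adjusted p = 0.00538), and so was Bmp3, at 1.06 to 1.34 TPM against 0.7, 0.71 and 0.17 TPM (log2 fold change 0.52, adjusted p = 0.0479). Bmp3 kept the call in 2 of the 9 fits without a library (adjusted p up to 0.126), and did not pass with a pseudocount of 0.1 (adjusted p = 0.116). Bmp4 had a log2 fold change of -0.48 (adjusted p = 0.0888) and Bmp2 one of -0.36 (adjusted p = 0.311).

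Inhbb, Chrd and Fstl1 were higher in sham than in intact tissue, with log2 fold changes of 0.84, 0.57 and 0.66 (adjusted p = 0.0139, 0.0202 and 0.0124, limma). Gdf15 was at 1.08, 1.35 and 1.79 TPM in intact and 2.59, 2.79 and 2.14 TPM in sham libraries (log2 fold change 0.55, adjusted p = 0.0308). Smad3 was at 39.78, 47.14 and 50.85 TPM in intact and 24.96 to 29.87 TPM in sham libraries, a log2 fold change of -0.69 (SE 0.11, adjusted p = 0.00975) with no overlap between the groups. Smad6 and Acvr1b had log2 fold changes of -0.49 and -0.39 at adjusted p values of 0.0476 and 0.0497. Leaving out sham replicate 2 took the call from Inhbb, Bmp6, Fstl1 and Chrd (adjusted p of up to 0.0529, 0.0597, 0.0539 and 0.0797), and Chrd was also lost without sham replicate 1 or intact replicate 2. Gdf15 was lost without intact replicate 1 or 2, sham replicate 1 or 2, or pMx replicate 2 (adjusted p up to 0.109), and Smad6 and Acvr1b passed in 1 of the 9 fits each, the one without intact replicate 3 (adjusted p up to 0.141 and 0.133). Bmp5, Bmp7, Ltbp2 and Smad3 passed in every fit that left out a library. In all, 8 genes passed without intact replicate 2, 7 without sham replicate 1 and 4 without sham replicate 2. Of all genes tested, 6.69%, 4.51% and 3.9% passed in these fits, against 12.7% with all libraries. With a fit of the 6 sham and intact libraries alone 7 passed, where 4.16% of all genes did, and Bmp3, Bmp6, Gdf15, Chrd, Acvr1b and Smad6 did not.

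Without intact replicate 3, the library with the muscle genes, 21 of the 51 genes passed in sham versus intact, 7 higher and 14 lower, where 18.1% of all genes did. None of the 13 was lost. The 8 gained were Chrdl1, Ltbp1, Ltbp4, Tgfbr3, Bmpr1a, Bmpr2, Smad7 and Id1, each lower in sham. The log2 fold change of Id1 went from -0.30 (adjusted p = 0.58) to -0.71 (adjusted p = 0.0114, limma) and that of Chrdl1 from -0.52 (adjusted p = 0.181) to -0.77 (adjusted p = 0.0279).

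Between pMx and intact tissue, 33 of the 51 genes passed, 12 higher and 21 lower, where 50.6% of all genes tested did, and 19 were DEGs, where 14.3% of all genes were. Of these, 6 were higher (6.4% of all genes) and 13 lower (7.89%). The higher DEGs were Inha, Inhba, Inhbb, Chrd, Fstl1 and Ltbp2. On the log2(TPM + 1) scale Ltbp2 increased most, by 3.06 (SE 0.18, adjusted p = 5.24e-06, limma), and Gdf10, Fst and Chrdl1 had the largest decreases, -3.39, -3.37 and -3.31. Smad3 passed the fold-change threshold here and in neither other comparison, with a log2 fold change of -1.01 (adjusted p = 0.00013). Tgfb3 and Tgfbr1 passed with log2 fold changes of 0.36 and 0.57 (adjusted p = 0.0227 and 0.0137), and Smad5 with -0.27 (adjusted p = 0.0194). Bmp7 did not, at -0.27 (adjusted p = 0.0729), with 0.3 to 0.69 TPM in intact and 0.15 to 0.21 TPM in pMx libraries. Without intact replicate 3, 36 genes passed, 12 higher and 24 lower, where 54.2% of all genes did, with Nog, Tgfbr2 and Smad9 gained. In that fit 18 were DEGs, where 14.7% of all genes were. Smad3 (log2 fold change -0.93) and Chrd (0.91) were then no longer DEGs, and Id1 (-1.26) was one. Calls of Tgfb3, Acvr1c, Smad5 and Id1 were lost in 2 to 8 of the fits without a library. Tgfb3 was lost without pMx replicate 1 or 3 (adjusted p up to 0.076), Acvr1c without intact replicate 2 or any pMx library (up to 0.0729), Smad5 without intact replicate 1 or 2 or pMx replicate 1 or 3 (up to 0.0687), and Id1 (log2 fold change -0.84, adjusted p = 0.0486) in every fit except that without intact replicate 3 (up to 0.151).

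Other genes of the pathway, taken from lists by role, numbered 83, of which 73 were tested. In pMx versus sham, 21 were higher and 17 lower at an adjusted p of 0.05 (limma), where 17.7% and 18.9% of all genes were. As DEGs, 10 were higher and 7 lower, where 3.36% and 4.85% of all genes were. The median log2 fold change of the 73 was -0.01. Of the 14 genes that store, process or activate latent TGF-beta, 7 were higher and 3 lower. Fbn2, a fibrillin of developing microfibrils, was at 1.13 to 2.68 TPM in sham and 13.09 to 20.69 TPM in pMx libraries (log2 fold change 2.64, adjusted p = 8.49e-05), and Emilin1, which restrains processing of the TGF-beta precursor, at 40.6 to 62.52 and 191.98 to 216.78 TPM (log2 fold change 1.98). Mmp14, a membrane protease, had a log2 fold change of 1.46. Itgb8, whose integrin releases active TGF-beta, was lower, at 7.25 to 10.58 TPM in sham and 1.66 to 2.77 TPM in pMx (log2 fold change -1.67, adjusted p = 0.000184).

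Among 14 further antagonists and modulators tested, 2 were higher and 6 lower in pMx than in sham, where 17.7% and 18.9% of all genes tested were. The BMP antagonist Sostdc1 and the BMP-binding membrane protein Crim1 were lower, with log2 fold changes of -1.39 and -1.18 (adjusted p = 0.00292 and 0.000416, limma), and Sostdc1 was listed at 0 in all 3 pMx libraries. Chrdl2, a relative of Chrdl1, was higher, at 3.22 to 5.39 TPM against 0.53 to 1.15 TPM in sham (log2 fold change 1.51, adjusted p = 0.000605). The 2 chordin-like genes thus differed in opposite directions. Of the 8 ligands and 7 receptors or co-receptors outside the 51 genes, 1 ligand, Gdf7, was lower (log2 fold change -0.59, adjusted p = 0.0218) and 1 receptor, the decoy Bambi, higher (log2 fold change 0.44, adjusted p = 0.021). Of 12 intracellular modulators, 2 were higher and 1 lower.

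Textbook targets of the pathway were mixed in direction. Of 12 TGF-beta and activin targets, 6 were higher and 3 lower in pMx than in sham, where 17.7% and 18.9% of all genes tested were. The matrix proteins Tgfbi and Postn had log2 fold changes of 1.67 and 1.68 (adjusted p = 0.000151 and 0.000324, limma), and the cell cycle inhibitor Cdkn2b one of 1.19. Ccn2, a matricellular growth factor, and Acta2, the smooth muscle actin, were lower, with log2 fold changes of -1.34 and -1.36. A list of 5 smooth muscle and pericyte genes summed to 1110.63 to 1293.72 TPM in sham and 922.08 to 995.81 TPM in pMx libraries. Its contractile genes Myh11 and Cnn1 were also lower, whereas Rgs5, Des and Cspg4 did not pass (log2 fold changes 0.08, 0.12 and 0.35). Myh11 was at 221.2 to 278.1 TPM in sham and 29.33 to 41.15 TPM in pMx (log2 fold change -2.85), and Cnn1 at 75.67 to 95.54 and 12.96 to 19.66 TPM (log2 fold change -2.31). The part of smooth muscle in the difference of Acta2 was not tested. Of 8 BMP targets outside the 51 genes, 4 were higher and 3 lower. Id4, a relative of the Id genes above, was at 27.3, 26.9 and 31.02 TPM in sham and 3.99, 4.38 and 6.53 TPM in pMx (log2 fold change -2.32, adjusted p = 9.63e-05). The bone transcription factors Runx2 and Sp7 were higher, at 1.72 to 3.26 and 0.26 to 0.64 TPM in sham and 7.24 to 8.09 and 3.32 to 3.45 TPM in pMx (log2 fold changes 1.36 and 1.58).

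In sham versus intact, 11 of the 73 other pathway genes were higher and 10 lower, where 6.73% and 5.97% of all genes were. As DEGs, 5 were higher and 1 lower, where 1.42% and 0.533% of all genes were. Postn, Mmp14, Fbn2, Tgfbi and Bgn, a matrix proteoglycan that binds TGF-beta, were higher, with log2 fold changes of 1.87, 1.45, 1.38, 1.16 and 1.01, and Ccn2 was lower at -1.05 (adjusted p from 0.00266 to 0.0099, limma).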

How the data were processed

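RNA captured with oligo-dT beads was sequenced at BGI, and the authors deposited TPM values for 17602 genes, which sum to 1000000 in each of the 9 libraries. Per the labels' processing notes, HISAT2 2.0.4 and the build mRatBN7.2 were used; the counting tool, annotation and filters are not given in the sources used here. Because TPM is a share, a rise in abundant genes lowers the rest, and the depth is unknown.

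Values were analysed as log2(TPM + 1), with 16512 genes kept that exceeded 0 TPM in 3 or more libraries. Group means over all 9 libraries, which share 1 estimate of the spread, were fitted in limma 3.58.1 (R 4.3.3; eBayes with a trend), two-sided, with Benjamini-Hochberg adjustment over all genes of a comparison. Fold changes on this scale understate those of low genes. The DEG thresholds were 0.05 for the adjusted p and 1 for the absolute log2 fold change. Groups and replicate numbers came from the sample titles. Tested on simulated data of 16512 genes for pMx versus sham, the fit called 95.5% of 200 genes changed by 2 on the log2 scale and 1 unchanged gene. Calls there used both DEG thresholds, the noise was normal and independent, and the changed genes had a mean log2(TPM + 1) above 2. Smaller changes, changes of scarcer genes and calls at the adjusted p alone were not part of that test. Neither was a share of changed genes as large as in the data, where 36.6% passed in pMx versus sham. The simulated rates therefore cannot be carried over to the calls reported here. Members and gene lists were chosen with earlier results of these data known. All 51 genes are named; other pathway genes are named if they were DEGs in pMx versus sham or sham versus intact, or, as Gdf7 and Bambi, chosen after their values were seen. Some genes that this rule covers are not reported here. Alternatives were a pseudocount of 0.1, a mean of at least 1 TPM, no filter, median-of-ratios rescaling, a fit of 6 libraries, no trend, a replicate block, adjusted p alone and leaving out each library.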

Additional observations from a re-analysis of the deposited data

How the results depend on the processing

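The counts of DEGs among the 51 genes, 16 in pMx versus sham, 2 in sham versus intact and 19 in pMx versus intact, became 31, 13 and 33 with the adjusted p alone. The shares of all genes went from 8.21%, 1.96% and 14.3% to 36.6%, 12.7% and 50.6%. With a pseudocount of 0.1 the sham versus intact count was 4, Inhbb and Bmp7 joining Fst and Ltbp2, and the pMx versus sham count 18, Nog and Bmpr1b joining the 16. The share of all genes that were DEGs rose as well, to 3.71% in sham versus intact and 13.5% in pMx versus sham. Leaving out each library gave 16 to 17, 1 to 3 and 16 to 19 DEGs, with 1 in sham versus intact without sham replicate 1 or 2. Of all genes, 7.45% to 8.82%, 1.18% to 2.58% and 14% to 14.8% were DEGs in these fits. In pMx versus sham, the 16 without pMx replicate 1 held 15 of those found with all libraries. The other counts of DEGs stayed within 1.5 times. At the adjusted p alone, the 13 genes of sham versus intact became 7 with its 6 libraries only, 8 without intact replicate 2, 7 or 4 without sham replicate 1 or 2, and 21 without intact replicate 3. The share of all genes that passed moved too, from 12.7% to 4.16%, 6.69%, 4.51% or 3.9%, and 18.1%. No result changed direction while past the threshold. The depth behind the TPM values is unknown, so counting error could not be separated from the spread between 3 libraries, and genes below 1 TPM have changes that depend on the pseudocount.

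The groups share replicate numbers, but the labels do not say that these mark an animal or batch. For this reason the numbers were not taken as pairs. Correlations of same-numbered libraries' deviations from their group means were 0.03, 0.37 and 0.48 between pMx and sham and 0.00, -0.40 and -0.49 between sham and intact. Those of differently numbered libraries were -0.47 to 0.31 and -0.40 to 0.47. Between pMx and intact, same-numbered libraries gave -0.38, -0.44 and -0.66 and differently numbered ones -0.47 to 0.59. Between pMx and sham, replicates 2 and 3 correlated best with their own number. The summed muscle genes of replicates 1 to 3 were 1128.98, 2429.6 and 192.2 TPM in sham and 2129.54, 2508.4 and 75.86 TPM in pMx. Their part in these correlations was not tested. With the replicate number as a block, the counts of DEGs were 16, 2 and 19, where 8.13%, 1.8% and 14.2% of all genes were DEGs. At an adjusted p of 0.05 the block took the calls of Nog in pMx versus sham (adjusted p = 0.0717, limma), of Bmp3, Gdf15 and Smad6 in sham versus intact (0.0905, 0.0691 and 0.073) and of Tgfb3 in pMx versus intact, where Fstl3 was gained. Not every library correlated best with its own number.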

Other observations

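Several further genes of the family were highest in intact replicate 3, the library with the muscle genes. Hjv, a BMP co-receptor known from muscle and liver, was at 162.34 TPM there, Amhr2, the anti-Mullerian hormone receptor, at 1.97 TPM and Itgb6, an integrin subunit that activates latent TGF-beta, at 3.6 TPM. Bmp15, a ligand known from the oocyte, was listed above 0 in all 9 libraries, at 1.55 to 5.55 TPM, with a log2 fold change of 0.53 in pMx versus sham (adjusted p = 0.171, limma).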
